A study of Homo sapiens with 2 samples.

Results

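The cancer-testis antigen families were followed on the arrays of 2 stable cell lines made from C33-A, a line of epithelial morphology from a human carcinoma of the cervix. The first was transfected with the full-length human CA9 cDNA in pcDNA3.0 and is called the CA9 line, or CA9 cells, here. The other was transfected with the empty vector and is called the vector line, or vector cells. Both were kept in RPMI containing fetal bovine serum at 10% and harvested for RNA 4 days after plating, and each line has 1 Affymetrix array. Whether each line is 1 clone or a pool is not stated. The members are the 73 of 54675 probe sets whose annotated gene symbols all begin with MAGE, GAGE, PAGE, XAGE, SSX or CTAG, or are PRAME. They list 68 gene symbols. Of the 73, 51 list 1 gene and 22 are shared between genes of a family. The prefix rule also takes in genes that are no classical cancer-testis antigens, namely SSX2IP with 6 probe sets and the CTAGE genes with 4, and the MAGE genes of type II (D, E, F, H and L) with 9.

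Cancer-testis antigens are proteins normally made in germ cells and, for some, in placenta, and re-expressed in many tumours, where T cells can recognise them. Many of their genes lie on the X chromosome in families of near-identical tandem copies, and in somatic cells their promoters are kept silent by DNA methylation and repressive chromatin. MAGE proteins share a domain that binds RING-type ubiquitin ligases, PRAME is a substrate receptor of a cullin-based ubiquitin ligase, SSX proteins are transcriptional repressors, and the GAGE, PAGE and XAGE proteins are small, acidic and largely unstructured.

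All values are intensities, which the authors made with RMA, and each difference is the log2 intensity of the CA9 line minus that of the vector line. A probe set was measurable if at least 1 array lay above the floor, the median intensity of all 54613 probe sets other than controls, 40.8. A measurable probe set was called where its arrays differed 2-fold or more. A single array per line gives no replicate, no p-value and no error of a difference, and the spread between cultures of the same line is unknown. As a measure of technical disagreement only, probe sets of 1 gene scattered around their gene's mean difference with an SD of 0.31, over 6186 genes. Over 29027 measurable probe sets the median difference was -0.03, the SD was 0.39, and 95% of values lay between -0.74 and 0.76. Hybridisation spike-ins were higher on the CA9 array in 17 of 18 probe sets, with a median difference of 0.41. Their part in the results was not tested. Intensities of different probe sets depend on their probes, so a brighter member is not taken to be more expressed than a dimmer one. CA9 itself was not analysed here, so the labels are not checked by it. Among 11 epithelial markers, the defining genes EPCAM and CDH1 lay below the floor on both arrays, and 9 others were measurable with a median difference of 0.18 and 6 of 9 above 0. Among those above the floor on both arrays, KRT14 was at 0.63, KRT8 at 0.57, KRT18 at 0.52 and KRT7 at 0.16, whereas CLDN4 was at -0.22 and ELF3 at -0.57. The list summed to 730.1 in CA9 cells and 655 in vector cells. Its part in the results was not tested.

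Of the 68 member gene identifiers 66 were found in the RefSeq gene table of GRCh38.p14, and RefSeq's promoter table of the same build gave 75 windows of 57 member genes. A window runs from 250 bases before a gene's start to 50 bases after it. The windows below belong to members whose values the results turn on. GAGE12F stands for the GAGE copies and is set beside PAGE1 and PAGE4, which lie next to them. MAGEA4 and PRAME are shown as members with signal on both arrays. MAGEA3 is shown for the signal of a probe set that it shares with MAGEA6, since no member lists MAGEA3 alone. The first listed window is printed where a gene has several. CpG dinucleotides, the sites of DNA methylation, are in capitals.
GAGE12F promoter, chrX:49560592-49560891, plus strand: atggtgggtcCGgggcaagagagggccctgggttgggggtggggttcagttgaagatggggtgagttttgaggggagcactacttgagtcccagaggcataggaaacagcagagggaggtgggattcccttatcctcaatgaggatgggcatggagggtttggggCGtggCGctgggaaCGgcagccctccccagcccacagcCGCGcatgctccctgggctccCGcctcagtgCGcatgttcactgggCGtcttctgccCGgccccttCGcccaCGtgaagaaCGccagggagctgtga
PAGE1 promoter, chrX:49695935-49696234, minus strand: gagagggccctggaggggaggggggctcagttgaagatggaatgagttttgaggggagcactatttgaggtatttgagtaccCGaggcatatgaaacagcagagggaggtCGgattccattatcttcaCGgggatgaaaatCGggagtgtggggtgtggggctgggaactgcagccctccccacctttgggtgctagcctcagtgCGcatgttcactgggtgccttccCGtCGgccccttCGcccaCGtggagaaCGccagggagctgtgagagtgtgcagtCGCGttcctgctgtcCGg
PAGE4 promoter, chrX:49829010-49829309, plus strand: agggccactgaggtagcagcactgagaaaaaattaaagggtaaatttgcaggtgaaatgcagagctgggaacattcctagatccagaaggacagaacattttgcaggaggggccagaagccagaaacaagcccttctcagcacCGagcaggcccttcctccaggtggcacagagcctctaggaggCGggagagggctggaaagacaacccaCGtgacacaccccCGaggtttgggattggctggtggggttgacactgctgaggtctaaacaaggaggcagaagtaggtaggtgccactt
MAGEA3 promoter, chrX:152698544-152698843, plus strand: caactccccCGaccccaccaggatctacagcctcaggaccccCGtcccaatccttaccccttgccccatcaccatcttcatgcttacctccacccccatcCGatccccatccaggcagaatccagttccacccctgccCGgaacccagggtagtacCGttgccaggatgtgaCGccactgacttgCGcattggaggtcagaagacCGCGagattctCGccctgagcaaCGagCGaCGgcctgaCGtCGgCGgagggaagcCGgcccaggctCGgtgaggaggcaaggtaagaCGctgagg
MAGEA4 promoter, chrX:151912224-151912523, plus strand: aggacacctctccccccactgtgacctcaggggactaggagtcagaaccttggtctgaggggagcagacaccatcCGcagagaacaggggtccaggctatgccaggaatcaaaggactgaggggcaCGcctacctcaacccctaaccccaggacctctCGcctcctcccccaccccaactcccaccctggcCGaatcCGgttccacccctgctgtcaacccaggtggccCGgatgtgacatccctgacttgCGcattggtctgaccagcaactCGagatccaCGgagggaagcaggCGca
PRAME promoter, chr22:22559216-22559515, minus strand: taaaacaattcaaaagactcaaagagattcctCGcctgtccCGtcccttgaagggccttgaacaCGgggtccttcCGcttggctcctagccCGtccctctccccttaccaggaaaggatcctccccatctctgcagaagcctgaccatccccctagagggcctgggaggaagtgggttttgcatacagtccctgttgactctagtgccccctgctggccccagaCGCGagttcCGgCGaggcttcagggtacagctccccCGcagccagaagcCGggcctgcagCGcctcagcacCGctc

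Aligned with each other, the windows of the 12 GAGE genes in the table, 11 of them listed by a member, were identical in 89.4% to 100.0% of aligned positions, over 66 pairs with a median of 100.0%. The PAGE1 window matched that of GAGE12F in 222 of 262 aligned positions, or 84.7%, and the PAGE1 and GAGE12F windows each hold 13 CpGs. The PAGE4 window holds 4 CpGs and aligned with GAGE12F over 27 positions alone. The windows of MAGEA3 and MAGEA6 were identical over all 300 bases, with 19 CpGs each. The median number of CpGs was 13 over the members' windows and 14 over all 35116 windows of the table. The median ratio of observed to expected CpGs was 0.48 in the members and 0.58 in all windows. The letters CCGGAA, the core of a motif of ETS factors, were present on either strand in 9.33% of the members' windows and in 17.2% of all windows. The MAGEA3 and MAGEA6 windows and the PRAME window printed above are among the 7 that hold it, and no GAGE, PAGE, XAGE or SSX window does. The letters GCGGGA, the core of an E2F motif, were present on either strand in 41.3% of the members' windows and 26.9% of all windows. All 12 windows of the 11 GAGE member genes are among the 31 members' windows that hold it, but they are near-copies and not independent. Of the SSX windows 7 of 8 hold it, and of the 16 MAGEA windows 0 do. The letters GGGCGG, the core of an SP1 motif, which can share bases with the E2F motif, were present on either strand in 29.3% of the members' windows and 45.0% of all windows, in 8 of the 16 MAGEA windows and in 0 GAGE windows. Such matches describe these letters and show no binding. In the members' percentage for each motif, the 12 GAGE near-copies count as separate windows.

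The GAGE probe sets were higher in the CA9 line and no other member reached 2-fold in either direction. Of the 73 members 43 were measurable, 40 with both arrays above the floor, and 30 lay at or below it on both arrays. Among the 43, 4 were called higher and 0 lower. Over all measurable probe sets 0.751% were called higher and 0.758% lower. All 4 called members are GAGE probe sets that list overlapping genes, so they are not independent of each other. The median difference of the 43 was 0.00, and 22 lay above 0 and 21 below it, against a median of -0.03 over all measurable probe sets. Without the GAGE probe sets the median was -0.05 and the farthest of 39 measurable members was at 0.87.

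**Figure D1:**
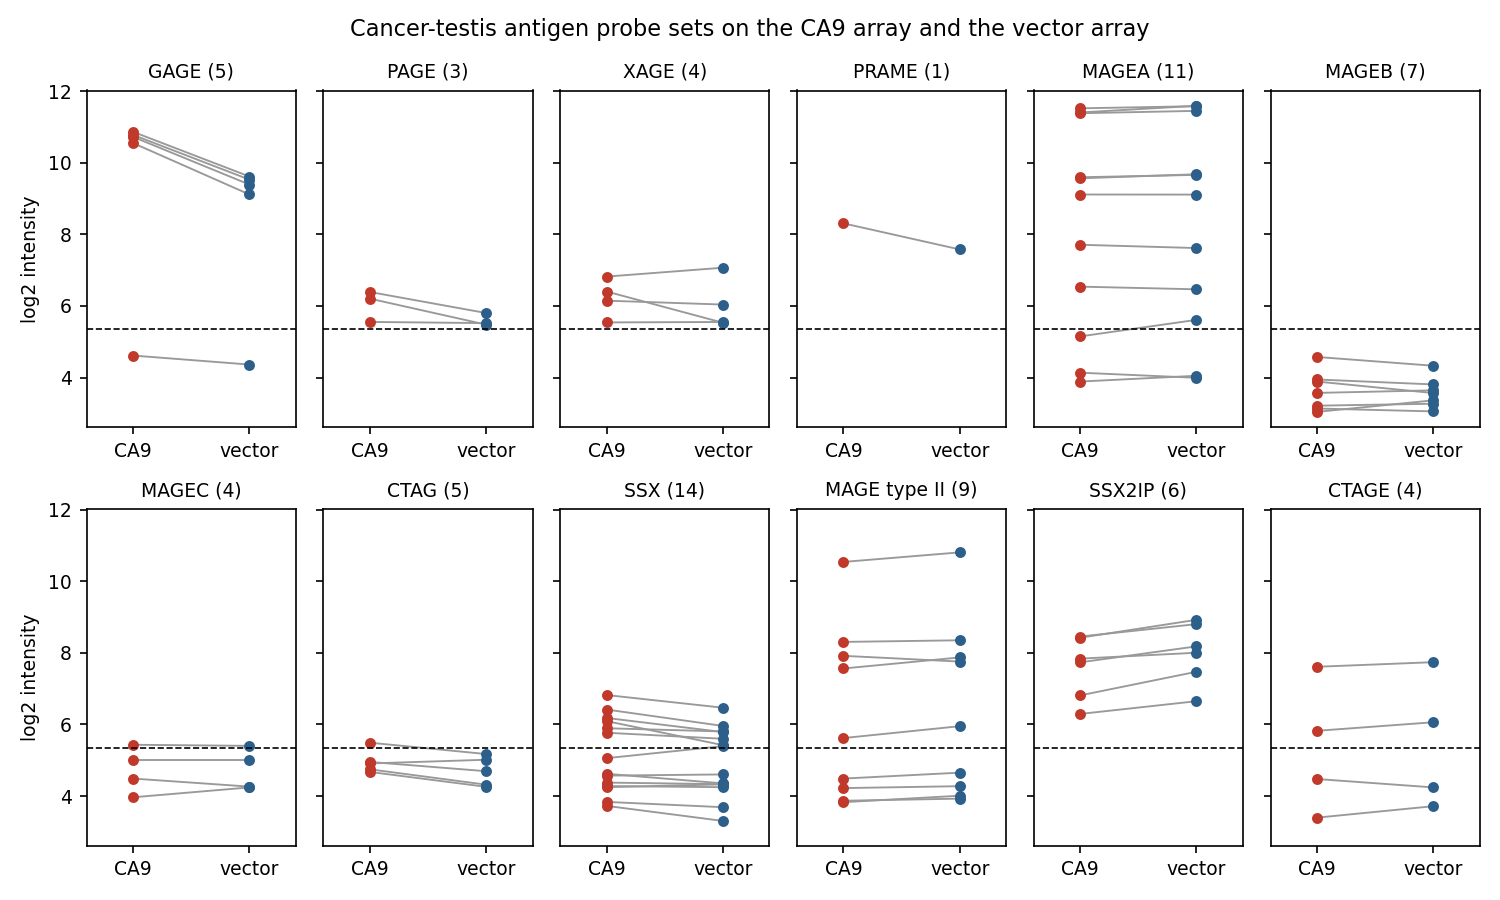
Log2 intensity of all 73 member probe sets on the CA9 array (red, left) and the vector array (blue, right), by family, with the number of probe sets in brackets. Each line joins 1 probe set, the dashed line is the floor (intensity 40.8), and MAGE type II joins the D, E, F, H and L genes. The 4 shared GAGE probe sets slope down to the vector array, whereas the lines of MAGEA are nearly flat.

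GAGE genes encode small germ-cell antigens that were first found as targets of T cells on melanoma. The probe set that lists GAGE12F, GAGE12B, GAGE12G, GAGE7 and GAGE4 had 1501 in CA9 cells and 555 in vector cells, 2.71-fold higher. The probe set that adds GAGE2A and the copies 12C, 12D, 12E and 12H to these had 1691 in CA9 cells and 672 in vector cells, 2.52-fold higher. These 2 had the largest differences of any member, 1.44 and 1.33 on the log2 scale. The next, which lists 12 genes including GAGE13 and GAGE1, had 1757 in CA9 cells and 739 in vector cells, 2.38-fold higher. The last, which lists 13 genes, had 1865 in CA9 cells and 785 in vector cells, also 2.38-fold higher. Each array measured RNA of a whole culture, so more cells that express GAGE and more RNA per cell cannot be told apart. Which of the copies contributed cannot be read from these probe sets.

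A difference of this size was rare at this intensity. Of 464 other probe sets with a mean intensity in the range of the shared GAGE probe sets, 4 were called higher, or 0.862%. All 4 shared GAGE probe sets are named _x_at, the manufacturer's mark for probes that can bind related sequences. Of 2901 other measurable probe sets so named, 1.00% were called higher, and of 1189 other measurable probe sets that list several genes, 0.589% were. The single probe set that lists GAGE1 alone had 24.5 in CA9 cells and 20.6 in vector cells, below the floor on both arrays. Leaving out probe sets named _x_at or _s_at, or those shared between genes, therefore left no called member.

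**Figure D2:**
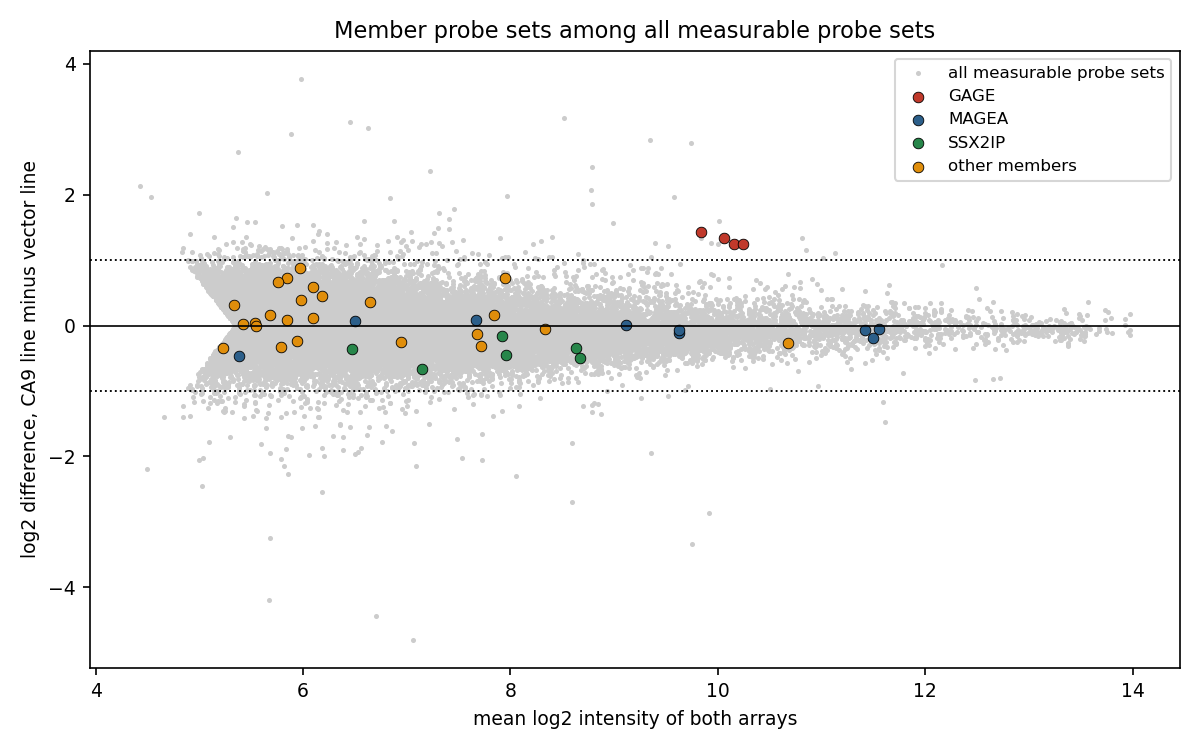
Log2 difference between the CA9 line and the vector line (vertical) against mean log2 intensity of both arrays (horizontal) for 29027 measurable probe sets (grey) and the 43 measurable members (coloured by family). Dotted lines mark 2-fold. The GAGE probe sets lie above the upper line at high intensity, the MAGEA probe sets at high intensity lie near 0, and the SSX2IP probe sets lie below 0.

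In the RefSeq gene order, the 12 GAGE genes lie in a row on the X chromosome, with PAGE1 and PAGE4 as the next measurable genes behind GAGE1. PAGE1, a relative of GAGE, had 73.7 in CA9 cells and 44.6 in vector cells, a difference of 0.73. PAGE4, a disordered protein of prostate and placenta, had 83.9 in CA9 cells and 55.8 in vector cells, a difference of 0.59. Both were above the floor on both arrays and short of 2-fold, and neither was measurable with the floor at the 75th percentile. PAGE5, which lies farther along the chromosome, had 47.0 in CA9 cells and 45.9 in vector cells. The 8 other genes among the 5 nearest measurable ones on each side are no members, and their differences ran from -0.50 for CLCN5 to 0.65 for CCDC22, with a median of 0.09 and 4 of 8 above 0. None of the 8 was called. CCDC22, FOXP3 and CACNA1F, on the far side of the row from PAGE1, were at 0.65, 0.41 and 0.40.

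**Figure D3:**
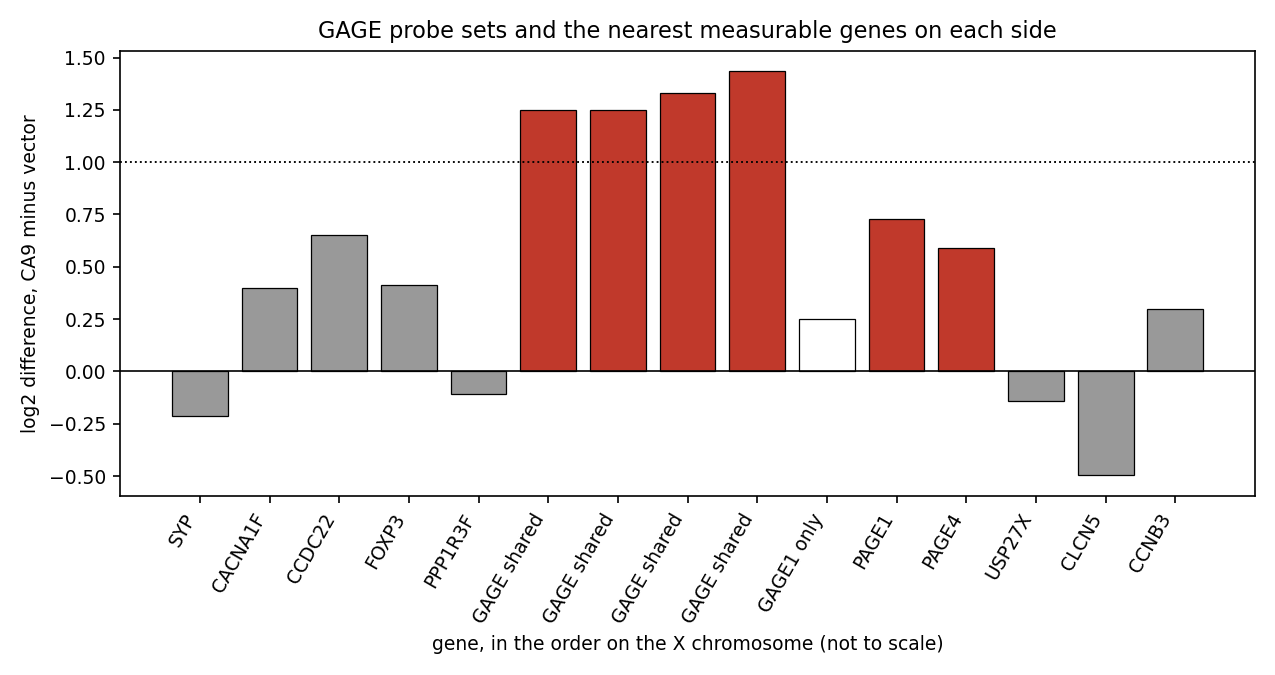
Log2 difference between the CA9 line and the vector line for the 5 nearest measurable genes on each side of the GAGE row, in gene order and not to scale, with the GAGE probe sets in the middle. Red bars are measurable members, grey bars other genes, and the white bar the GAGE1 probe set, which lies below the floor. The dotted line marks 2-fold, which the 4 shared GAGE probe sets alone pass.

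The XAGE genes are related to GAGE and lie elsewhere on the X chromosome. XAGE3, known from placenta, had 84.6 in CA9 cells and 46.2 in vector cells, a difference of 0.87, the farthest from 0 of the members that were not called. Of all measurable probe sets, 1.38% were at least as high as XAGE3. The next XAGE probe sets had nearly the same value on both arrays. The one shared by XAGE1A and XAGE1B had 70.9 in CA9 cells and 65.7 in vector cells, and XAGE2 had 46.5 in CA9 cells and 46.9 in vector cells. XAGE-4 had 113 in CA9 cells and 134 in vector cells, a difference of -0.25. The 4 probe sets thus split evenly around 0, with a median of 0.05.

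PRAME, the only member family on chromosome 22, restrains signalling by retinoic acid receptors. Its probe set had 317 in CA9 cells and 191 in vector cells, a difference of 0.73 that is short of 2-fold, and 2.91% of all measurable probe sets were at least as high. It has no second probe set here.

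The MAGE-A family holds the first cancer-testis antigens described in melanoma, and most of its probe sets were well above the floor in both lines and close to equal. MAGEA4 had 2943 in CA9 cells and 3065 in vector cells. MAGEA6 had 2677 in CA9 cells and 2801 in vector cells, and the probe set it shares with MAGEA3 had 2716 in CA9 cells and 3090 in vector cells. The differences of these 3 probe sets were -0.06, -0.07 and -0.19. The MAGE-A2, MAGE-A3 and MAGE-A6 proteins are known to bind the ubiquitin ligase TRIM28. The probe sets shared by MAGEA2 and MAGEA2B had 774 and 554 in the CA9 line, against 811 and 553 in the vector line. MAGEA12 had 758 in CA9 cells and 820 in vector cells.

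The antigens MAGEA10 and MAGEA1 were likewise near equal. MAGEA10 had 209 in CA9 cells and 196 in vector cells, and MAGEA1 had 93.0 in CA9 cells and 88.3 in vector cells. The probe set shared by MAGEA9 and MAGEA9B had 35.5 in the CA9 line, below the floor, and 48.9 in the vector line, at least 1.20-fold lower. MAGEA8 and the androgen receptor coregulator MAGEA11 lay below the floor on both arrays. Over the 9 measurable MAGEA probe sets the median difference was -0.07, and the 8 with both arrays above the floor lay between -0.19 and 0.09. The probe sets of MAGEA1, MAGEA6 and MAGEA12 and that shared by MAGEA3 and MAGEA6 are named _x_at, so they can bind related sequences.

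The other testis-restricted MAGE families gave almost no signal. All 7 MAGEB probe sets lay below the floor, between 8.23 and 23.8 in the CA9 line and between 8.30 and 20.1 in the vector line. Of 4 MAGEC probe sets, 1 for MAGEC2, another partner of TRIM28, was just above the floor, at 43.2 in CA9 cells and 42.3 in vector cells. Its second probe set had exactly the same value on both arrays, 31.9, below the floor. The CTAG genes encode NY-ESO-1 and its relative LAGE-1, antigens much used in tumour vaccines. Of their 5 probe sets 1, for CTAG2, had 44.9 in CA9 cells and 36.1 in vector cells, at least 1.10-fold higher, and the other 4 lay below the floor, between 25.5 and 30.96 in the CA9 line and between 19.1 and 32.3 in the vector line.

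SSX genes encode repressors known from the SS18 fusion of synovial sarcoma. Of 14 SSX probe sets 7 were measurable, with a median difference of 0.35 and 6 of 7 above 0. They listed SSX1, SSX2, SSX2B, SSX3, SSX5 and SSX7 in part together, and none was called. The 6 above 0 are linked through genes they share, so they are not independent of each other. With no floor the median of all 14 was 0.16, and with the floor at the 75th percentile 1 probe set was left. The largest difference was 0.67, in a probe set shared by SSX2 and SSX2B that had 68.2 in CA9 cells and 42.9 in vector cells. Other probe sets of the same pair had 113 and 59.5 in the CA9 line, against 88.5 and 55.9 in the vector line, differences of 0.35 and 0.09. The probe set shared by SSX3, SSX5 and SSX7 had 85.4 in CA9 cells and 62.2 in vector cells. A probe set of SSX3 alone had 72.5 in CA9 cells and 55.2 in vector cells. Further probe sets of SSX3 alone had 19.0 and 24.6 in the CA9 line, against 20.1 and 20.4 in the vector line. These lay below the floor on both arrays. A probe set of SSX1 had 33.3 in the CA9 line, below the floor, and 42.1 in the vector line. The second SSX1 probe set had 14.3 in CA9 cells and 12.9 in vector cells, below the floor on both arrays. All 3 SSX4 probe sets lay below the floor. All 7 measurable SSX probe sets are named _x_at.

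**Figure D4:**
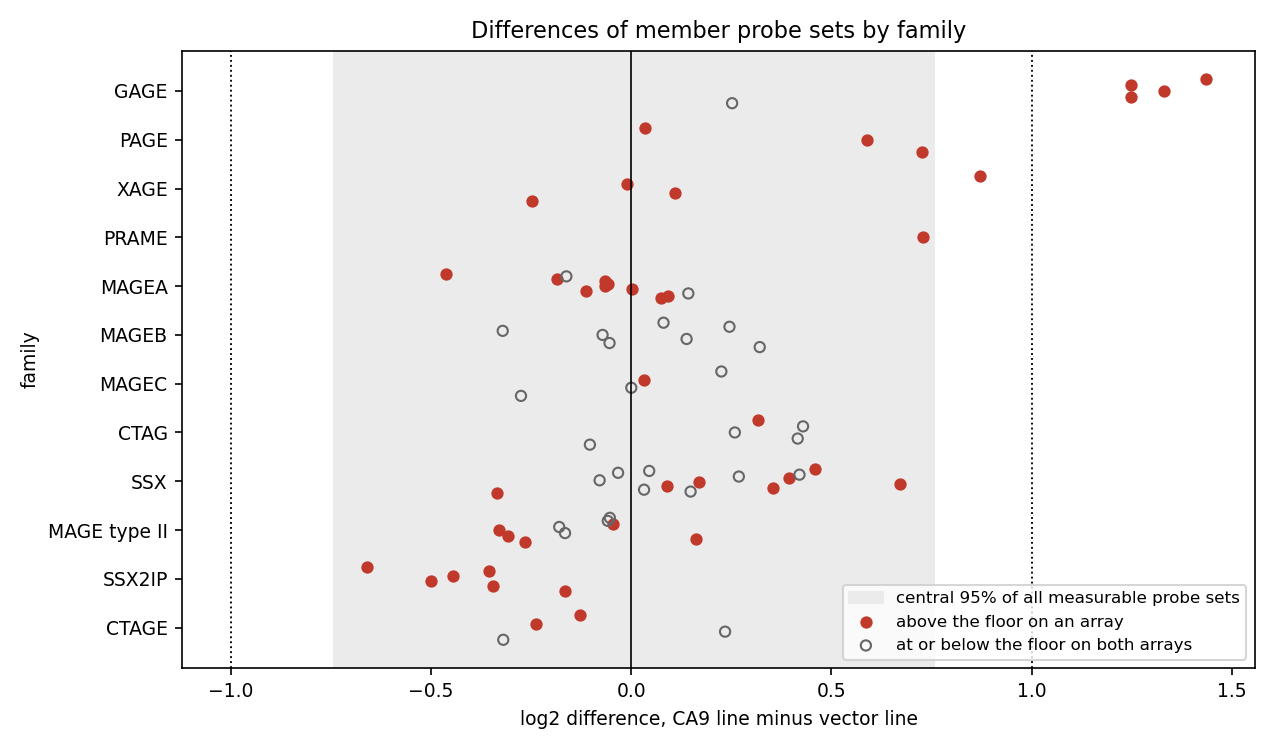
Log2 difference between the CA9 line and the vector line for each member probe set, by family. Filled points are measurable, open points lie at or below the floor on both arrays, dotted lines mark 2-fold, and the grey band holds the central 95% of all measurable probe sets, from -0.74 to 0.76. The 4 shared GAGE probe sets and XAGE3 lie outside the band.

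MAGE genes of type II are expressed in many tissues and are not counted among the cancer-testis antigens. MAGED1, an adaptor of the neurotrophin receptor p75, had 1491 in CA9 cells and 1794 in vector cells, a difference of -0.27. MAGED2, which is needed for salt transport in the fetal kidney, had probe sets on opposite sides of 0, 1 with 242 in CA9 cells and 216 in vector cells and 1 with 189 in CA9 cells and 234 in vector cells. MAGEE1, a partner of dystrobrevin, had 49.2 in CA9 cells and 61.9 in vector cells. MAGEF1, an intronless MAGE gene on chromosome 3, had 317 in CA9 cells and 327 in vector cells. MAGEE2, MAGEH1 and the imprinted MAGEL2 lay below the floor. The median difference of the 5 measurable type II probe sets was -0.27, and that of the 10 measurable probe sets of type I (A, B and C) was -0.06.

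SSX2IP encodes a centrosome and cell junction protein that was named for its binding to SSX2, and lies on chromosome 1. All 6 of its probe sets were measurable and all 6 differences were below 0. The farthest had 112 in CA9 cells and 178 in vector cells, and the nearest to 0 had 229 in CA9 cells and 257 in vector cells. The differences ran from -0.66 to -0.17 with a median of -0.40, and none reached 2-fold. Among 354 genes with 5 or more measurable probe sets, 47 had all of them below 0, or 13.3%, and 14 had a median as low as that of SSX2IP or lower, or 3.95%. The CTAGE genes are relatives of a factor for protein export from the endoplasmic reticulum. Their 2 measurable probe sets, both shared, had 196 and 56.6 in the CA9 line, against 214 and 66.8 in the vector line.

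Of the members 60 lie on the X chromosome and 13 on others. Among 719 measurable X-linked probe sets that are no members, 9 were called higher, or 1.25%, and 5 lower, or 0.695%, and their median difference was -0.06.

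Other cancer-testis genes were read from lists with 1 probe set per gene, the brightest of those that list a single gene. Over all 13823 measurable genes read this way, 0.651% were called higher and 0.694% lower, with a median of -0.03. Of 16 other X-linked antigens with such a probe set, 2 were measurable and neither was called, FATE1 at 0.22 and LUZP4 at -0.21. Of 44 autosomal antigens with such a probe set, 19 were not measurable, among them CTCFL, BRDT, HORMAD1 and SYCP1. The 25 measurable ones included TTK, PBK, NUF2 and KIF2C, so the list's median describes such genes. Of these 25, 2 were called higher and 0 lower, with a median of -0.16 and 8 of 25 above 0. Both calls rest on vector values below the floor, and neither was left with such values set to the floor or with the floor at the 75th percentile. ADAM2, a sperm surface protein, had 57.9 in CA9 cells and 17.6 in vector cells, at least 1.42-fold higher against the floor. HSPB9, a testis heat shock protein, had 61.8 in CA9 cells and 29.8 in vector cells, at least 1.51-fold higher. HSPB9 was no longer called with both arrays brought to the same median, or with an intensity-dependent trend removed.

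Most genes that define germ cells were dim. Of 21 germ cell genes with a probe set, 9 were measurable and none was called, with a median of 0.18 and 5 of 9 above 0. The germ cell RNA-binding genes DAZL and DDX4 and the meiotic genes SYCP3 and SPO11 lay below the floor on both arrays. PRM1, PIWIL2, SOHLH2 and REC8 lay above it on both arrays, at differences of 0.34, 0.25, 0.20 and 0.18. ACR and ACRV1 did too, at -0.34 and -0.05. The intensities of the list summed to 1800.5 in CA9 cells and 1812 in vector cells. GTSF1, a factor of the piRNA pathway, made up most of that sum, with 1044 in CA9 cells and 1106 in vector cells. MOV10L1, a piRNA helicase, had 34.5 in CA9 cells, below the floor, and 55.2 in vector cells, at least 1.35-fold lower. TEX101, a germ cell surface protein, had 51.5 in CA9 cells and 39.2 in vector cells, the last below the floor, at least 1.26-fold higher.

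Factors known to silence or control cancer-testis genes had a median difference of -0.14 over 27 measurable genes, 6 of them above 0. Over all 13823 measurable genes the median was -0.03, and 6348 lay above 0. The median of the 27 depended on the normalization. It was -0.04 with an intensity-dependent trend removed, -0.07 with quantile normalization and -0.20 with array medians equal. TRIM28, the co-repressor that MAGE proteins bind, was the only one called, with 3284 in CA9 cells and 1524 in vector cells, 2.15-fold higher in its single probe set. The next farthest was the methylcytosine oxidase TET2, with 71.6 in CA9 cells and 123 in vector cells, a difference of -0.78. DNMT1, the maintenance DNA methyltransferase, was at 0.22 and its partner UHRF1 at -0.22, whereas the de novo enzymes DNMT3A and DNMT3B were at -0.37 and -0.32. E2F6, a repressor of germ cell genes, was at -0.36 and SETDB1, a histone methyltransferase recruited by TRIM28, at -0.31. Among 22 measurable partners of MAGE, PRAME and SSX proteins, TRIM28 was again the only one called, and the median was -0.14 with 8 of 22 above 0. DLX5, a homeodomain factor bound by MAGED1, had 41.1 in CA9 cells and 27.2 in vector cells, the last below the floor, at least 1.01-fold higher. Of the partners above the floor on both arrays, the retinoic acid receptor RARA was at 0.43 and the ubiquitin ligase PJA1 at -0.42. The ligase subunits that work with PRAME were at -0.41 for RBX1, -0.30 for CUL2, -0.19 for ELOB and 0.10 for ELOC. Markers of blood, stromal and endothelial cells gave 0 called genes among 8 measurable, with a median of 0.06 and 5 of 8 above 0. PTPRC had 30.1 in CA9 cells, below the floor, and 58.1 in vector cells, at least 1.42-fold lower, and CD14 had 57.1 in CA9 cells and 36.9 in vector cells, the last below the floor. PTPRC passed the 2-fold rule under all 3 other normalizations, with its CA9 value still below the floor. That list summed to 3116 in CA9 cells and 2913 in vector cells, and its part in the results was not tested. The stromal collagen gene COL3A1 made up most of that sum, with 2538 in CA9 cells and 2339 in vector cells, a difference of 0.12.

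**Figure D5:**
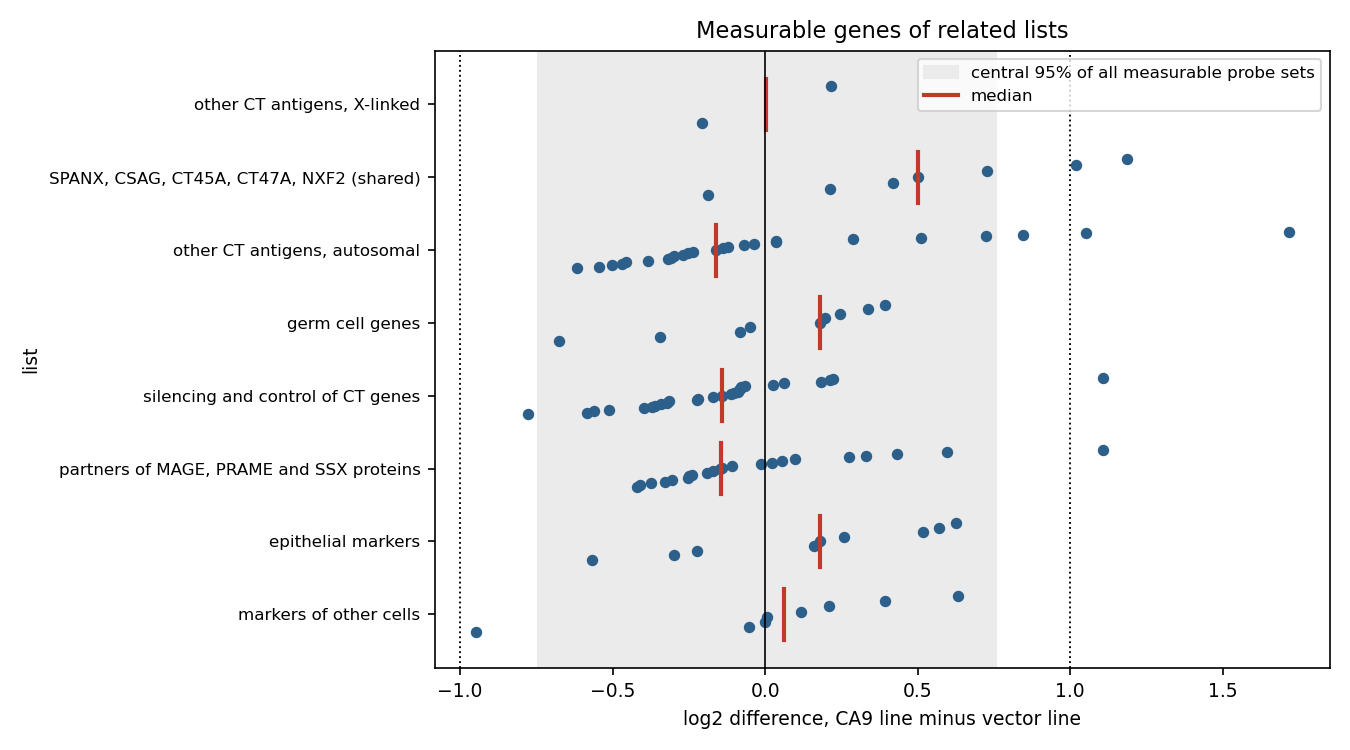
Log2 difference between the CA9 line and the vector line for the measurable genes of each related list (points) with the list's median (red bar). The second row shows shared probe sets of other X-linked families. The grey band holds the central 95% of all measurable probe sets and dotted lines mark 2-fold. TRIM28 and, in the second row, a shared SPANX probe set at 1.02 lie beyond 2-fold with both arrays above the floor. ADAM2 and HSPB9 lie there only by vector values below the floor. The CT47A probe set of the second row, at 1.19, lies there too, with its vector value below the floor.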

How the data were processed

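The deposited series matrix gives 1 intensity per probe set and array, made by the authors with RMA, per the submitters' processing notes. Its version and settings are not given in the sources used here. The values run from 6.79 to 17091, so they were read as linear and put on log2 with no pseudocount. Gene symbols came from the platform annotation, in which 41091 probe sets other than controls list 1 gene, 1801 several and 11721 none, and were updated through the RefSeq table of GRCh38.p14 for gene lists and as an alternative for the members, which left 73.

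Members were named where called, and in each family the gene with the brightest probe set, the largest differences either way and any with probe sets on opposite sides of 0. In other lists called genes were named, filled to 2 with those farthest from 0. Further list genes are named for their role or level, chosen after their values were seen. The members and lists were chosen with earlier results of these data known. Alternatives changed normalization, floor, probe sets, membership and averaging. Promoter windows were aligned globally with free end gaps in Biopython 1.88. The number of arrays, 1 per line, limits the precision. Python 3.11.15, numpy 2.4.6, pandas 2.3.3, statsmodels 0.14.6 and matplotlib 3.10.9 were used for the rest.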

Additional observations from a re-analysis of the deposited data

How the results depend on the processing

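The count of 4 members called higher was unchanged with the array medians set equal, quantile normalization, a loess trend removed, the higher floor, no floor, updated symbols, values below the floor set to it, and without SSX2IP and CTAGE genes. It was 0 leaving out names ending in _x_at or _s_at and 0 leaving out shared probe sets, since all 4 carry that ending and are shared. It was 1 with the probe sets of a gene averaged, and 1 with the shared GAGE probe sets counted once, this and setting values to the floor being added after the data were seen. None was called lower under any of the 12 settings. The members' median of 0.0027 moved to -0.059 with array medians equal, where that of all measurable probe sets was -0.09, to -0.066 at the 75th percentile floor, to 0.089 without SSX2IP and CTAGE genes, and to -0.059 without shared probe sets. With array medians equal, 37.2% of all called probe sets were higher, in place of 49.8%. The median of the GAGE probe sets ran from 1.23 to 1.37, that of MAGEA from -0.13 to 0.01, and PRAME from 0.67 to 0.84. The autosomal antigen list had 1 called gene in place of 2 with array medians equal or the loess trend removed, and 0 at the higher floor or with values below the floor set to it, which left 149 of 218 higher and 155 of 220 lower calls over all probe sets. No paired analysis was possible because there is 1 array per line.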

Other observations

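Other X-linked cancer-testis families are covered by probe sets that list several copies, which the 1-gene lists leave out. They were looked at after the data were seen. Of 10 probe sets shared within the SPANX, CSAG, CT45A, CT47A or NXF2 genes, 7 were measurable, with a median difference of 0.50 and 6 of 7 above 0. Of these 7, 2 were called higher and 0 lower. The SPANX probe sets overlap in the genes they list, as do the NXF2 probe sets, so the 7 are not independent. The median was 0.32 over all 10 with no floor. With the floor at the 75th percentile it was 0.73 over 3 probe sets, 1 of them called higher. Over all measurable probe sets the median was -0.03, 13596 of 29027 lay above 0 and 0.751% were called higher. SPANX genes encode sperm proteins of the nuclear envelope. The probe set listing SPANXA1, SPANXA2, SPANXB1 and SPANXC had 268 in CA9 cells and 132 in vector cells, 2.03-fold higher at a difference of 1.02, which was 0.96 and no longer called with array medians equal. The other 2 shared SPANX probe sets were at 0.73 and 0.50. A probe set of SPANXB1 alone had 22.1 in CA9 cells and 19.0 in vector cells, below the floor on both arrays. The CT47A probe set had 82.1 in CA9 cells and 36.1 in vector cells, which is below the floor, at least 2.01-fold higher. CSAG2 and CSAG3, which belong to the chondrosarcoma-associated antigens, had 268 in CA9 cells and 306 in vector cells, a difference of -0.19. The CT45A probe sets lay below the floor.

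The rule left out 4 probe sets that list a MAGE gene beside another gene. Those of MAGED4, which also list small nucleolar RNA genes, were at -0.36 and -0.14, and those of the MAGEA5P pseudogene were at 0.00 and 0.39, the last with the vector line below the floor.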
